A study of Mus musculus with 24 samples.

Results

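Etv4, Etv5, Egr1, Fosl1, Fos, Phlda1 and Ier3 are genes that ERK signalling switches on in many mouse and human cell types. They were taken by exact symbol from the array annotation, and all 7 were found among the 12393 genes measured. Each gene was followed by its brightest probe set over 24 Affymetrix arrays of mouse RNA, as log2 of the deposited intensity plus 16. Every level below is on that scale and every change is a difference of such levels. Levels of different genes are not set against each other, since probe sets differ in brightness.

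The study asked how SMB medulloblastoma lines compare with tumors and normal cerebellum, and how growth factors and RAS change them. RAS transformed cells gave 7 arrays, with 3 for SMB21 and 2 each for SMB55 and SMB56. The labels do not say which RAS gene or vector was used. The growth factor (GF) group held 1 array per line, from cells kept for more than 3 weeks with EGF at 20 ng/mL, bFGF at 20 ng/mL and heparin. Parental cells gave 8 arrays, with 4 for SMB21 and 2 each for SMB55 and SMB56. All SMB cells, RAS and GF cells included, are labelled Ptch1 mutant, come from spontaneous medulloblastomas (MB) of Ptch+/- mice, and grow as neurospheres in DMEM/F12 with B27. Loss of Ptch1, the receptor that holds Smo in check, leaves Sonic hedgehog signalling on. The 3 primary MB came from Ptch1 mutant adult mice. The normal tissue was wild-type cerebellum, 1 array from an adult and 2 from postnatal day 6 (P6), when granule neuron precursors divide. The titles call the replicates biological but name neither cultures nor animals, so the p-values measure the spread between these arrays, which may be technical.

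EGF and bFGF bind receptor tyrosine kinases that load RAS with GTP, and RAS-GTP acts through RAF and MEK to activate the kinase ERK. ERK phosphorylates ternary complex factors bound with SRF, which start transcription of immediate-early genes such as Fos and Egr1 within minutes. It also inactivates the repressor CIC, which otherwise silences the ETS factors Etv4 and Etv5. Etv4 and Etv5 bind GGAA-containing sites, Egr1 is a zinc-finger factor of GC-rich sites, and Fos and Fosl1 (Fra-1) pair with JUN proteins to form AP-1. Fosl1 usually follows later and gains stability when ERK stays active. Phlda1 encodes a pleckstrin-homology-like domain protein, and Ier3 (IEX-1) a short-lived stress and survival protein that several signals induce.

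In the GRCm38.p6 gene table of RefSeq, Etv4 lies at chr11:101769747-101785310, Etv5 at chr16:22381313-22439570, Fosl1 at chr19:5447698-5455938, Fos at chr12:85473890-85477274, Phlda1 at chr10:111506286-111508649 and Ier3 at chr17:35821713-35822911. The arrays carry no coordinates of their own. Promoter sequence from RefSeq was at hand for 3 members, Etv5, Fos and Ier3. They are shown because no such sequence was at hand for the other members. Fos and Ier3 moved together over most cultures, while Etv5 was already high in parental cells. Each run is the 250 bases before the start of transcription, on the strand of the gene. For Fos this is chr12:85473640-85473889 on the plus strand, for Ier3 chr17:35821463-35821712 on the plus strand, and for Etv5 chr16:22439571-22439820 on the minus strand. Capitals mark every match to a motif searched on both strands.
Fos: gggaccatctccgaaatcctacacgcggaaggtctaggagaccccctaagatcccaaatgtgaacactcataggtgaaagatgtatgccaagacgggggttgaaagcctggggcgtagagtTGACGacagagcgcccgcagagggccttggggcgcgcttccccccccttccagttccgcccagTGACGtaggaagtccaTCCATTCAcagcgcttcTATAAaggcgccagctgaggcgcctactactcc
Ier3: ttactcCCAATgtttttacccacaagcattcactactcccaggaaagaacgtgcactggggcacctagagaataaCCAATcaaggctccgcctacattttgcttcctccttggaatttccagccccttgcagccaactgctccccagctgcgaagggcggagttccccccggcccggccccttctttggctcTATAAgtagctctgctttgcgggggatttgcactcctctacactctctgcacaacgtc
Etv5: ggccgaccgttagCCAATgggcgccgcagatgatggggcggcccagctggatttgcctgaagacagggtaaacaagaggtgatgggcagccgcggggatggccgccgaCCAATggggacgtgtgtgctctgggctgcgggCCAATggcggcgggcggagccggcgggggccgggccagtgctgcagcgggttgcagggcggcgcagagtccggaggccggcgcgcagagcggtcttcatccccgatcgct

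The motifs with a match were TGACG (a partial cyclic AMP response element), TGAATGGA (a CIC site), TATAA (the TATA box) and CCAAT. The last pair was added after the letters had been read. Counting from the start of transcription, the Fos window holds TGACG at -129 to -125 and at -66 to -62, TGAATGGA on the opposite strand at -50 to -43, and TATAA at -33 to -29. The Ier3 window holds TATAA at -58 to -54 and CCAAT at -244 to -240 and -175 to -171. The Etv5 window holds CCAAT at -237 to -233, -142 to -138 and -110 to -106. Of 27025 mouse promoters of this length, 17.9% hold TGACG, 1.01% TGAATGGA, 23.5% TATAA and 34.5% CCAAT. No match was found in these 3 windows to TGANTCA (AP-1, in 6.87% of promoters), TGACGTCA (the full cyclic AMP response element, 1.62%), CCGGAA (ETS, 12.2%), ACTTCCGG (ETS, 2.93%), TGAATGAA (CIC, 1.09%), GCGTGGGCG (EGR, 0.54%) or the CArG box of SRF (1.4%). That says only that these letters are not in these windows. A second annotated start of Etv5 lies within the gene. Its window, not printed here, holds CCAAT on the opposite strand at -224 to -220.

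Array medians of the deposited intensity lay between 188.8 and 245.1, so the arrays were on 1 scale. The lower quartile of the genes on an array lay between 6.01 and 6.28 on the log2 scale. The spread between 2 replicates, as the SD of their log2 difference over all genes, ran from 0.18 between the P6 arrays to 0.79 between the SMB56 parental arrays. No pair shared more than 7 identical values, so none was counted as a duplicate. Over the 10 microglia and macrophage markers, the summed intensity was 473 to 1178 in RAS cells, 377 to 573 in GF cells, 343 to 412 in parental SMB cells, 10664 to 17436 in primary MB, 9219 in the adult cerebellum and 4507 to 6096 in the P6 cerebella. The 6 granule neuron precursor markers summed to 2426 to 12900 in RAS cells, 4266 to 13689 in GF cells, 14956 to 27459 in parental SMB cells and 42085 to 46509 in MB.

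**Figure D1:**
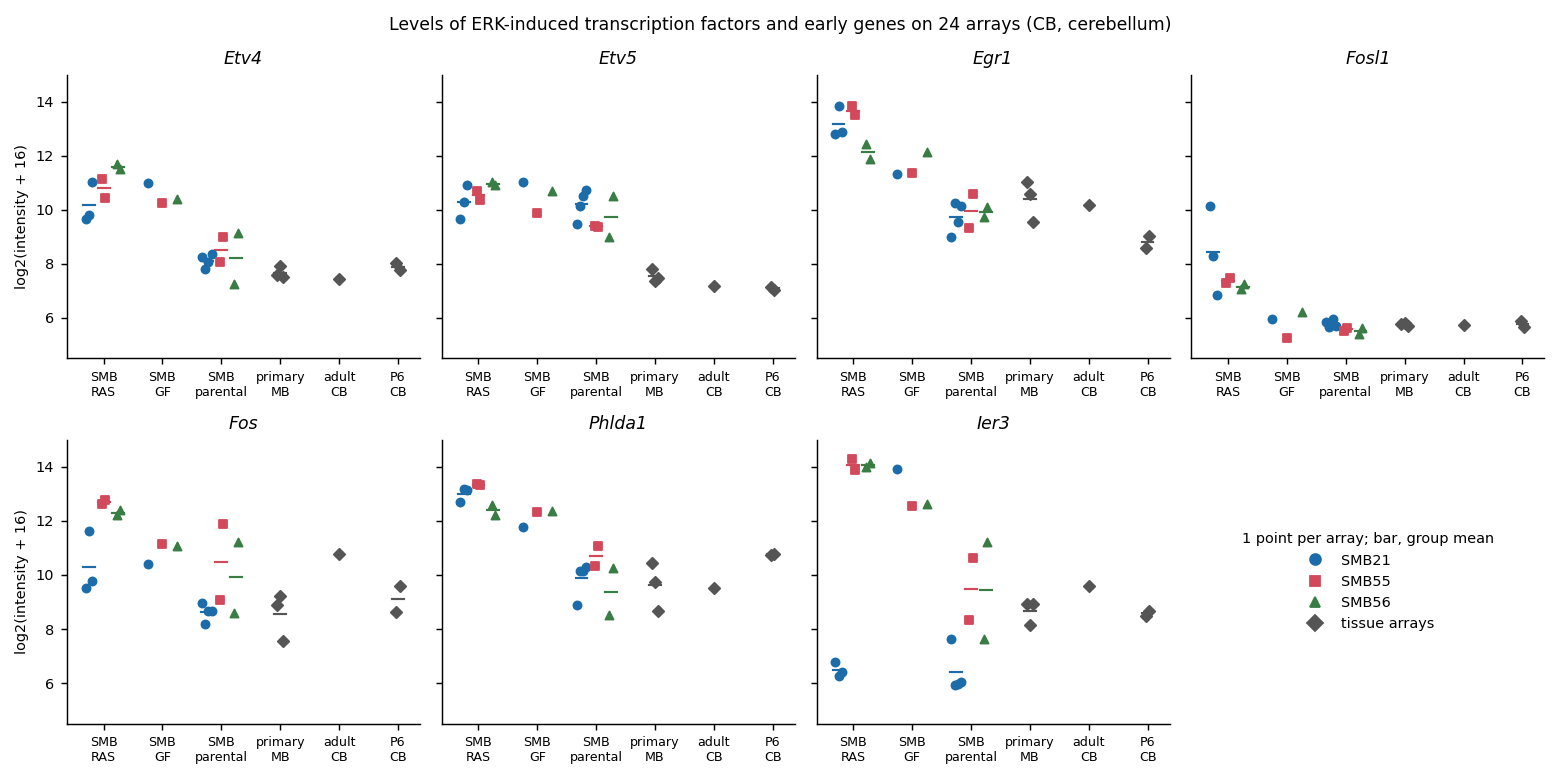
Levels of the 7 genes on 24 arrays, 1 panel per gene, with log2(intensity + 16) on the vertical axis and the groups along the horizontal axis. Points are arrays, bars are means of groups with more than 1 array, and shape and colour give the SMB line or tissue. Etv5 is higher in every SMB array than in any tissue array, and Ier3 in SMB21 is near 14 with growth factors but under 7 on all 3 RAS arrays.

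Below, a gene passed the test where its p from limma, a linear model moderated across genes, was under 0.05 after adjustment over all 12393 genes. Counted by comparison, 5 of the 7 were higher in RAS than in parental cells (Etv4, Egr1, Fosl1, Fos and Phlda1), where 14.1% of all genes were higher and 17.9% lower. The median member difference was log2 2.48, against -0.05 over all genes. With the lines as replicates, which leaves 1 mean per line and treatment, the same 5 passed, with limma adjusted p of 0.0223 to 0.0346. For 5 members, those that passed, the RAS arrays exceeded the parental arrays in each of the 3 lines, as they did for 6.75% of all genes.

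In GF cells 4 members were higher than in parental cells (Etv4, Egr1, Phlda1 and Ier3), where 3.97% of all genes were higher and 4.96% lower, and the member median was log2 1.76 against -0.01. The GF array exceeded the parental arrays in each line for Etv4, Etv5, Egr1, Phlda1 and Ier3, and for 8.09% of all genes. The GF calls rest on 1 array per line: with the lines as replicates, or without the SMB21 line, 0 members passed by limma (adjusted p of 0.0735 to 0.279 with the lines as replicates), although their unadjusted p over all arrays was 0.00415 or less. Without the SMB21 GF array Etv4 missed the threshold (log2 1.77, limma adjusted p = 0.0613). RAS exceeded GF cells for 2 members, Egr1 and Fosl1, where 5.71% of all genes were higher. The RAS and GF comparisons share the parental arrays. In the order of the series, the GF arrays stand among the parental arrays numbered 1, and all RAS arrays come later, with the other parental arrays. Whether these sets were run apart is not known here. Parental arrays of each line stand in both sets and could link them, but no term for the sets was fitted. GF and RAS cells were each compared with parental arrays of both sets. The part of a run difference in these comparisons, and in RAS against GF, was not tested.

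Between tissues, 0 members passed for MB against normal cerebella by limma, where 8.68% of all genes passed, and Egr1 had an unadjusted p of 0.0436. For adult against P6 cerebellum 0 members passed, where 19.2% of all genes did, with an unadjusted p of 0.039 for Egr1. The adult group is 1 array whose spread is taken from the other groups. Higher in parental SMB cells was 1 member, Etv5, both against MB, where 6.76% of all genes were higher, and against cerebella, where 13% were. With 7 members, a count of 1 is near what these shares give. In a bulk sample, fewer cells that express a gene and less RNA per cell cannot be told apart. MB carried the microglial signal given above, whose part in these differences was not tested. Of its 10 markers 7 passed upward in MB against cerebella by limma and 0 downward. Csf1r (log2 -0.99), Cx3cr1 (-0.71) and C1qa (0.61) did not pass. Fos differed by log2 -1.11 for MB against cerebella (SE 0.71) and by 1.67 for adult against P6 cerebellum (SE 0.92), neither of which passed.

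Etv4 separated the treated from the untreated cultures. On the RAS arrays it stood at 9.82, 11.01 and 9.65 in SMB21, at 11.13 and 10.44 in SMB55 and at 11.68 and 11.51 in SMB56. With growth factors it stood at 10.98 in SMB21, 10.24 in SMB55 and 10.38 in SMB56. The parental arrays gave 8.24, 7.82, 8.07 and 8.35 in SMB21, 8.08 and 8.98 in SMB55, and 7.24 and 9.15 in SMB56. Each RAS and GF array thus lay above every parental array, and the RAS and GF ranges overlapped. Relative to parental cells, Etv4 was 5.56-fold higher in RAS cells (log2 2.48, SE 0.33, limma adjusted p = 7.01e-05) and 4.67-fold higher in GF cells (log2 2.22, SE 0.43, limma adjusted p = 0.00591). RAS and GF cells differed by log2 0.25 (95% interval -0.68 to 1.19), which did not pass the test.

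Across lines Etv4 was highest in RAS SMB56 cells, where it was 10.5-fold above parental cells, against 4.10-fold in SMB21 and 4.78-fold in SMB55. The test of a difference between lines was not passed (limma adjusted p = 0.49). In tissue it was 7.58, 7.93 and 7.50 in MB, 7.44 in the adult cerebellum and 8.02 and 7.76 at P6. The parental line means, 8.12 to 8.53, lay above all of these, but the difference from MB of log2 0.61 (SE 0.19, limma adjusted p = 0.0875) did not pass.

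Etv5, the close paralog of Etv4, behaved differently: it was already high in parental cells. The parental arrays gave 9.48, 10.13, 10.52 and 10.73 in SMB21, 9.41 and 9.37 in SMB55, and 8.99 and 10.50 in SMB56. MB gave 7.82, 7.35 and 7.48, the adult cerebellum 7.17 and P6 7.16 and 7.02. No parental array fell as low as any tissue array. The parental cells were grown in culture and the tissues were not, so culture and a difference between the cells themselves cannot be told apart here. Parental SMB cells exceeded MB 4.70-fold (log2 2.23, SE 0.22, limma adjusted p = 0.00159) and normal cerebella 6.35-fold (log2 2.67, SE 0.22, limma adjusted p = 0.000335).

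With the lines together, Etv5 passed in neither treatment. RAS arrays gave 10.30, 10.93 and 9.65 in SMB21, 10.70 and 10.36 in SMB55 and 11.01 and 10.92 in SMB56, and GF arrays 11.03 in SMB21, 9.87 in SMB55 and 10.68 in SMB56. The SMB21 ranges of RAS and parental cells overlapped, whereas in SMB55 and SMB56 every RAS array exceeded the parental ones, and the GF array exceeded the parental arrays in each line. The log2 difference was 0.68 for RAS against parental cells (SE 0.28, 95% interval 0.07 to 1.28, limma adjusted p = 0.0811) and 0.68 for GF against parental cells (SE 0.37, limma adjusted p = 0.304), so neither passed. Without the SMB21 line the RAS difference was 1.18 (limma adjusted p = 0.0275), without array 3 of SMB21 RAS it was 0.88 (0.0179), and without parental array 4 of SMB21 it was 0.78 (0.0491). A second, dimmer Etv5 probe set ranged from 7.88 to 9.83 over the cultures, against 6.94 to 7.66 over the tissues. With it, parental SMB cells exceeded MB by log2 0.88 (limma adjusted p = 0.0295) and cerebella by log2 1.27 (limma adjusted p = 0.00469), which are smaller differences than with the brighter probe set.

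Egr1 (chr18:34861207-34864956, GRCm38.p6) followed a graded order among the cultures. RAS arrays gave 13.85, 12.86 and 12.78 in SMB21, 13.83 and 13.49 in SMB55 and 12.42 and 11.87 in SMB56. GF arrays gave 11.33 in SMB21, 11.35 in SMB55 and 12.13 in SMB56. Parental arrays gave 8.99, 10.26, 9.54 and 10.12 in SMB21, 9.32 and 10.57 in SMB55, and 9.73 and 10.11 in SMB56. Every treated array exceeded every parental one, and in SMB21 and SMB55 the RAS arrays also exceeded the GF array, whereas in SMB56 the RAS pair lay on both sides of it. Egr1 was 9.06-fold higher in RAS than in parental cells (log2 3.18, SE 0.31, limma adjusted p = 5.77e-06) and 3.40-fold higher in GF than in parental cells (log2 1.76, SE 0.41, limma adjusted p = 0.0149). RAS exceeded GF cells 2.67-fold (log2 1.42, SE 0.41, limma adjusted p = 0.0394). By line that difference was 1.83 in SMB21, 2.31 in SMB55 and 0.01 in SMB56. The test of a difference between lines was not passed (limma adjusted p = 0.251).

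The Egr1 calls that involve GF cells rest on few arrays, whereas RAS against parental cells passed in all 33 alternatives. The GF difference from parental cells was log2 1.32 (limma adjusted p = 0.125) without the SMB56 GF array. RAS against GF missed the threshold when any of 7 single arrays was left out, with differences of 1.11 to 1.42 and limma adjusted p of up to 0.203, reached without the SMB55 GF array. In tissue Egr1 gave 11.03, 10.60 and 9.55 in MB, 10.16 in the adult cerebellum and 8.58 and 9.02 at P6. Each MB array exceeded both P6 arrays, and the adult array lay among the MB values. MB exceeded all cerebella by log2 1.14 (SE 0.47, limma adjusted p = 0.168), which did not pass, and the P6 cerebella alone by log2 1.59 (limma adjusted p = 0.0494).

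Fos differed widely between the parental arrays of SMB55 and of SMB56. RAS arrays gave 11.63, 9.79 and 9.52 in SMB21, 12.64 and 12.77 in SMB55 and 12.21 and 12.40 in SMB56. GF arrays gave 10.39 in SMB21, 11.14 in SMB55 and 11.09 in SMB56. Parental arrays gave 8.95, 8.18, 8.69 and 8.65 in SMB21, but 9.08 and 11.90 in SMB55 and 8.61 and 11.23 in SMB56. In every line the RAS arrays lay above the parental ones, whereas the SMB55 and SMB56 GF arrays lay between their parental pairs. Over the lines Fos was 4.09-fold higher in RAS than in parental cells (log2 2.03, SE 0.46, limma adjusted p = 0.00358), and in GF cells log2 1.18 higher (SE 0.60, limma adjusted p = 0.265), which did not pass. Without SMB21 the RAS difference was log2 2.30 and missed the threshold (limma adjusted p = 0.0525).

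Every RAS array exceeded every other array for Fosl1. RAS arrays gave 8.28, 6.85 and 10.13 in SMB21, 7.28 and 7.46 in SMB55 and 7.06 and 7.24 in SMB56. GF arrays gave 5.97 in SMB21, 5.24 in SMB55 and 6.22 in SMB56, and the 8 parental arrays lay between 5.40 and 5.97. The tissues lay between 5.67 and 5.89. All parental and tissue values were therefore under the lower quartile of genes on any array, where an array compresses differences, and every RAS array was above them. The RAS difference from parental cells was log2 2.13 (SE 0.36, limma adjusted p = 0.000437) and from GF cells log2 1.89 (SE 0.48, limma adjusted p = 0.0215), while GF and parental cells differed by log2 0.24 (limma adjusted p = 0.839).

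Both Fosl1 calls carried limits. A second Fosl1 probe set reached 7.47 on array 3 of SMB21 RAS, where the first gave 10.13, but was 5.59 to 5.95 on the other RAS arrays and 5.24 to 5.57 on parental arrays. With that probe set the RAS difference from parental cells was log2 0.53 (limma adjusted p = 0.0832) and from GF cells log2 0.45 (0.328). The RAS difference from GF cells missed the threshold without the SMB21 GF array (log2 1.74, limma adjusted p = 0.0733) and without the SMB55 GF array (log2 1.70, limma adjusted p = 0.112). Array 3 of SMB21 RAS also had the highest summed intensity of the 6 fibroblast and meningeal markers, 14420, against 4739 and 5518 on the other SMB21 RAS arrays, 549 to 1533 on the SMB55 and SMB56 RAS arrays, 729 to 1255 in GF cells and 286 to 479 in parental cells. Without that array Fosl1 was log2 1.73 higher in RAS than in parental cells (limma adjusted p = 3.27e-05).

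Phlda1 had the least spread of the 7 genes between RAS arrays (SD 0.43, n = 7). They gave 13.19, 13.14 and 12.71 in SMB21, 13.35 and 13.33 in SMB55 and 12.58 and 12.23 in SMB56. GF arrays gave 11.77 in SMB21, 12.33 in SMB55 and 12.36 in SMB56. Parental arrays gave 8.90, 10.15, 10.14 and 10.31 in SMB21, 10.32 and 11.07 in SMB55, and 8.50 and 10.26 in SMB56. No treated array overlapped with any parental one. Phlda1 was 7.83-fold higher in RAS cells (log2 2.97, SE 0.28, limma adjusted p = 4.1e-06) and 4.52-fold higher in GF cells (log2 2.18, SE 0.37, limma adjusted p = 0.00282) than in parental cells. RAS exceeded GF cells by log2 0.79 (95% interval 0.00 to 1.58, limma adjusted p = 0.171), which did not pass over all genes.

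In tissue Phlda1 ran the other way round from Egr1, with 10.44, 9.74 and 8.67 in MB, 9.53 in the adult cerebellum and 10.76 and 10.79 at P6. Both P6 arrays exceeded every MB array and the adult array. The tissue differences did not pass, with log2 -0.74 for MB against all cerebella (SE 0.55, limma adjusted p = 0.408) and -1.25 for adult against P6 cerebellum (SE 0.74, limma adjusted p = 0.302).

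Ier3 values fell apart by line. In SMB21 it gave 6.25, 6.40 and 6.79 on the RAS arrays, 13.91 on the GF array, and 7.63, 5.93, 5.97 and 6.05 on the parental arrays. In SMB55 it gave 14.29 and 13.87 on the RAS arrays, 12.54 on the GF array, and 8.34 and 10.62 on the parental arrays. In SMB56 it gave 13.98 and 14.14 on the RAS arrays, 12.63 on the GF array, and 7.64 and 11.23 on the parental arrays. RAS cells of SMB55 and SMB56 thus stood at the top of the Ier3 range, while RAS cells of SMB21 lay between parental array 1 of that line, at 7.63, and its other 3 parental arrays, which were all lower than any RAS array.

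**Figure D2:**
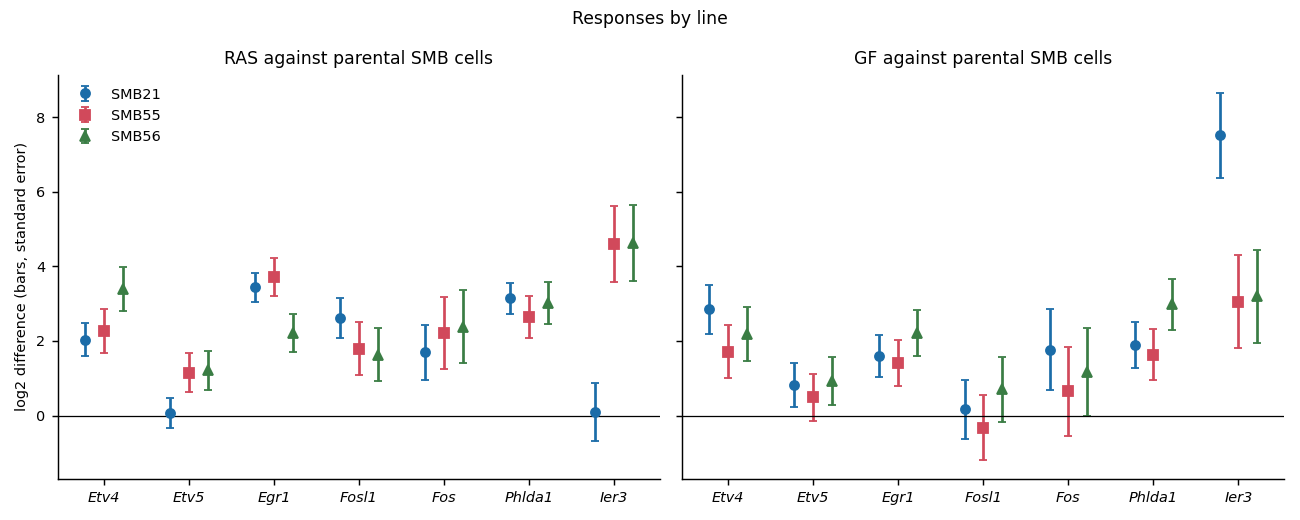
Log2 differences of the 7 genes in RAS cells (left) and GF cells (right) from parental cells of the same line, with standard errors from the fit of 9 line and treatment means. Egr1 and Phlda1 are above 2 in all 3 lines with RAS. Ier3 is 0.08 with RAS and 7.52 with growth factors in SMB21, but 4.60 and 4.62 with RAS in SMB55 and SMB56.

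In the fit by line, RAS against parental cells differed by log2 0.08 in SMB21 (95% interval -1.63 to 1.80, limma adjusted p = 0.959), by 4.60 in SMB55 (SE 1.02, 0.00874) and by 4.62 in SMB56 (SE 1.02, 0.0167). GF against parental cells differed by log2 7.52 in SMB21 (SE 1.14, limma adjusted p = 0.00305), and by 3.05 in SMB55 (0.456) and 3.20 in SMB56 (0.183), which did not pass. RAS cells of SMB21 had log2 -7.43 against the GF array of that line (SE 1.18, limma adjusted p = 0.00511), whereas the difference was 1.54 in SMB55 and 1.43 in SMB56, neither of which passed. The RAS against GF difference differed between lines (limma F test, adjusted p = 0.0203), by 8.97 between SMB55 and SMB21 (SE 1.72) and 8.86 between SMB56 and SMB21 (SE 1.72). Of all genes, 4.08% passed that F test, and Ier3 was the 1 member that did. The test was added with the values in view, and its SMB21 GF value rests on 1 array. Without array 2 of SMB56 RAS the adjusted p was 0.0517. Parental arrays 2 to 4 of SMB21 had Ier3 at intensities of 44.9, 46.8 and 50.4, at percentiles 20.1, 21.5 and 23.1 of the genes on the array, so the size of the SMB21 differences depends on the offset and is not given as a fold.

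The same fit gave 4 members higher in RAS than in parental cells in each line. They were Etv4, Egr1, Fosl1 and Phlda1 in SMB21, where 19.4% of all genes passed, and Etv4, Egr1, Phlda1 and Ier3 in SMB55 and SMB56, where 21.5% passed in SMB55 and 12% in SMB56. In GF cells 2 members passed in SMB21 (Etv4 and Ier3), 0 in SMB55 and 1 in SMB56 (Phlda1), where 8.21%, 0.686% and 5.43% of all genes did. Each of these GF tests has 1 GF array, whose spread is assumed to be that of the other groups, so a missed call in 1 line is not a difference between lines. In SMB55 the unadjusted limma p was under the threshold for Etv4 (0.0365), Egr1 (0.0461), Phlda1 (0.0351) and Ier3 (0.0325). RAS differed from GF cells in Ier3 in SMB21, in Egr1 in SMB55 (log2 2.31, limma adjusted p = 0.0394) and in no member in SMB56, where 6.34%, 10.4% and 4.01% of all genes passed.

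Ier3 did not pass 3 related F tests. They gave limma adjusted p of 0.0793 for the RAS response by line, 0.343 for the GF response by line and 0.0727 for the parental level by line. Over all genes 3.45%, 1.4% and 5.08% passed these tests in that order. The first passed without parental array 1 of SMB56 (0.0475) or array 2 (0.00677), and the last without parental array 1 of SMB21 (0.0371), array 1 of SMB56 (0.00634) or array 2 of SMB56 (0.0262). With all lines in 1 fit, Ier3 was log2 2.59 higher in RAS than in parental cells (SE 0.99, limma adjusted p = 0.0582), and log2 4.41 higher in GF than in parental cells (SE 1.30, limma adjusted p = 0.048). The GF call was lost in 20 of 33 alternatives, for instance without the SMB21 GF array (log2 2.08, adjusted p = 0.386). The RAS difference passed without the SMB21 line (log2 4.61, limma adjusted p = 0.00727). In tissue Ier3 gave 8.93, 8.16 and 8.94 in MB, 9.60 in the adult cerebellum and 8.50 and 8.66 at P6.

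The parental arrays of SMB55 and SMB56 were not alike for these genes. In every line, SMB21 included, parental array 1 stands with the GF arrays in the order of the series. The other parental arrays stand with the RAS arrays. The part of this order in the gaps was not tested. Array 2 exceeded array 1 for Fos by 2.82 in SMB55 and 2.62 in SMB56, and for Ier3 by 2.28 in SMB55 and 3.60 in SMB56. These gaps lay between the 98.8th and 99.8th percentile of such gaps over all genes of the line. For Etv4 the gap was 0.90 in SMB55 and 1.92 in SMB56, and for Phlda1 it was 0.75 and 1.76 in the same lines. Etv5 had a gap of 1.51 in SMB56 and -0.05 in SMB55. For Egr1 it was 1.24 in SMB55 and 0.39 in SMB56, and for Fosl1 0.13 in SMB55 and 0.24 in SMB56. Against the parental arrays numbered 1 alone, 6 members passed in RAS cells (Etv5 joined), and without those arrays 5 did. Fos then differed by log2 2.81 and by log2 1.46, and Ier3 was not among the genes that passed in either case.

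**Figure D3:**
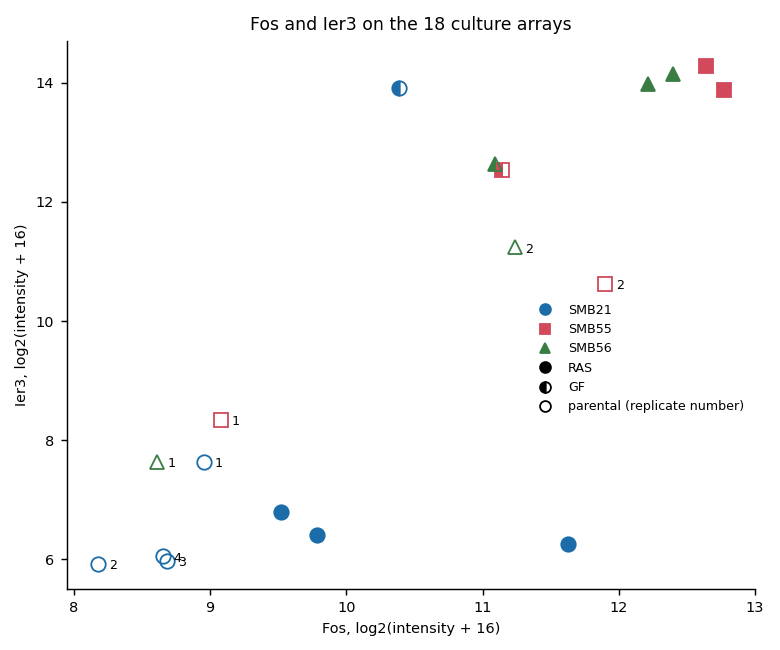
Fos (horizontal) against Ier3 (vertical), both as log2(intensity + 16), on the 18 culture arrays, with colour and shape for the line and fill for the treatment. Replicate numbers stand beside parental arrays. Parental array 2 of SMB55 and of SMB56 lies far from array 1 on both axes, and the 3 SMB21 RAS arrays lie under 7 for Ier3 at Fos levels of 9.52 to 11.63.

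Of 27 other immediate-early genes, all measured, 16 were higher and 3 lower in RAS than in parental cells, with a median of log2 0.84. Over all genes 14.1% were higher in that comparison and 17.9% lower. Maff, a small MAF factor, was higher by log2 2.95 (limma adjusted p = 1.8e-05) and Ier5 lower, at log2 -2.07 (limma adjusted p = 6.14e-06). In GF cells 3 were higher and 2 lower, with a median of log2 0.23, where 3.97% of all genes were higher and 4.96% lower. The AP-1 subunit Junb was higher by 1.65 and Ier5 lower, at -1.97. Ier5 was therefore lower in both treatments, in which the members that passed were higher. Against GF cells RAS cells had 6 higher and 0 lower, led by Egr2 (log2 2.32) and Atf3 (1.43).

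Of 20 other ERK-induced genes and feedback inhibitors, 16 were measured, and the others were not analysed here. With RAS 15 of the 16 were higher than in parental cells and 0 lower, with a median of log2 1.82. The shares over all genes in the RAS and GF comparisons are those given for the immediate-early genes. The hyaluronan receptor Cd44 (log2 4.19, limma adjusted p = 2.22e-06) and the cytokine Lif (log2 3.73, limma adjusted p = 2.57e-06) had the smallest p. With growth factors 7 were higher and 0 lower, with a median of log2 1.04, led by the inhibitors of receptor tyrosine kinase signalling Spry2 (2.52, limma adjusted p = 0.000289) and Spred1 (1.09, limma adjusted p = 0.000888). RAS exceeded GF cells for 4, Lif (2.71) and the urokinase receptor Plaur (1.67) among them, and fell short for 1. The lists were chosen with results of these data known, so their direction is not independent evidence.

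**Figure D4:**
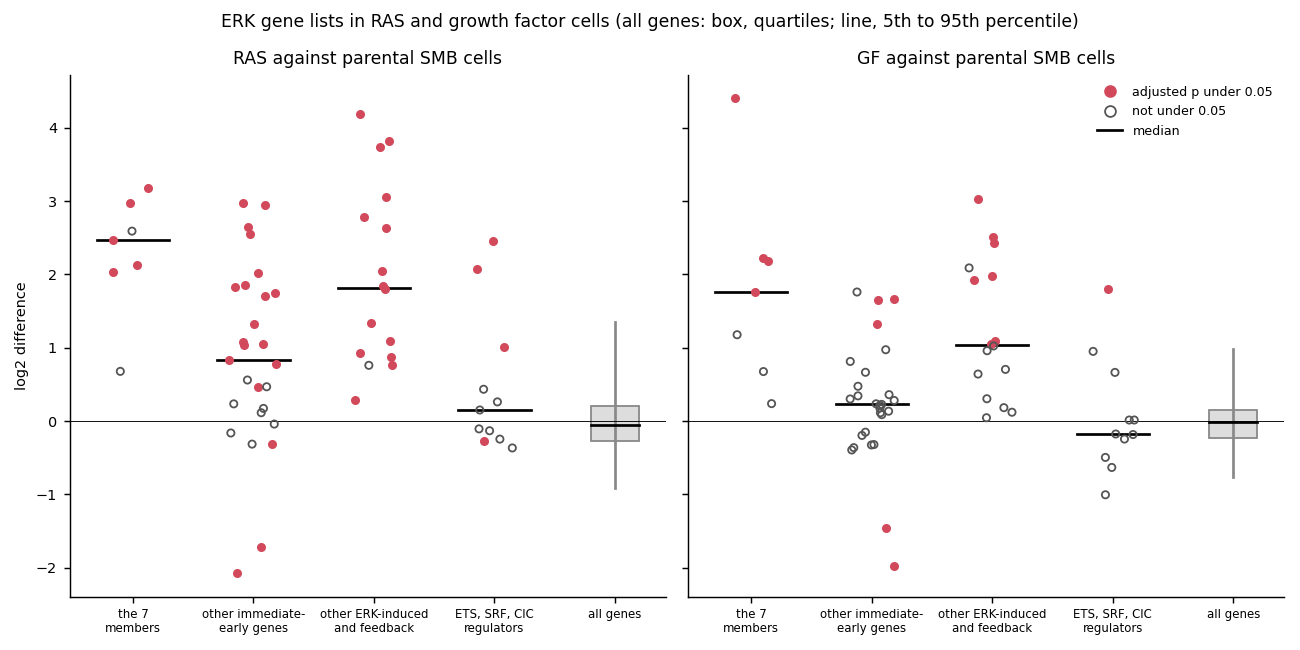
Log2 differences from parental cells in RAS cells (left) and GF cells (right) for the members, 3 lists of related genes and all 12393 genes. Points are genes, filled where the limma adjusted p is under 0.05, bars are medians, and for all genes the box gives the quartiles and the line the 5th to 95th percentile. The medians are 2.48 for the members, 1.82 for other ERK-induced and feedback genes and 0.84 for other immediate-early genes in RAS cells, and 1.76, 1.04 and 0.23 in GF cells.

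Of 12 ETS, SRF and CIC genes, which include regulators of the members, 11 were measured. In RAS cells 3 were higher and 1 lower than in parental cells, with a median of log2 0.15. Over all genes 14.1% were higher there and 17.9% lower, so these counts are not set apart from the shares. Elk3, a ternary complex factor (log2 2.45, limma adjusted p = 9.44e-06), and Ets1 (2.08, limma adjusted p = 0.000523) were the leading pair. In GF cells 1 was higher, Elk3 (1.81, limma adjusted p = 0.00438), where 3.97% of all genes were. Between tissues, Ets2 (log2 1.44) and Srf (0.69) were higher in MB than in cerebella, where 8.68% of all genes passed. Mrtfa (0.78) and Erf (1.18), an ETS repressor that ERK moves out of the nucleus, were higher in parental SMB cells than in MB. Of all genes 6.76% were higher in that comparison.

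Over the 18 culture arrays, Egr1 and Phlda1 had the highest Pearson correlation of any pair (r = 0.94), then Etv4 and Phlda1 (0.853) and Fos and Ier3 (0.802), while Fosl1 and Ier3 had r = -0.01. These arrays share lines and treatments, so the values describe 3 lines under 3 conditions. Of other genes, Spry1 (r = 0.951), Igfbp4 (0.939) and Erbb2 (0.936) were most like Etv4, and Rnf145 (0.844), Tlcd4 (0.806) and Sft2d2 (0.784) most like Etv5. Plat (0.964), Rhoc (0.945) and Pttg1ip (0.945) were most like Egr1. Rhoc (0.964) was also most like Phlda1, followed by Pofut2 (0.961) and Nfkbiz (0.961). Prrx2 (0.939), Prss22 (0.932) and Myof (0.922) were most like Fosl1, Col16a1 (0.965), Tsc22d4 (0.958) and Serpina3n (0.953) most like Fos, and Ntpcr (0.954), G6pc3 (0.952) and Bag3 (0.945) most like Ier3.

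Summed intensities of markers of some other cell types also differed between treated and parental cells, in part through a few genes of a list. The 7 endothelial and pericyte markers summed to 373 to 4496 in RAS cells, with 1098 to 4496 in SMB21, to 350 to 1523 in GF cells and to 214 to 349 in parental cells. Of these, 3 passed upward in RAS cells (Rgs5, Kdr and Pdgfrb) and 0 in GF cells. Pecam1 (log2 -0.04), Tek (-0.03), Cldn5 (-0.11) and Cdh5 (0.78) did not pass in RAS cells. On the RAS arrays both these sums and those of the 6 fibroblast and meningeal markers, given beside Fosl1, were highest in SMB21 and lowest in SMB56. Of the fibroblast and meningeal markers, Foxc1 (log2 2.87), Col3a1 (3.01) and Dcn (2.02) passed upward in RAS against parental cells. Lum (0.70), Col1a1 (0.23) and Col1a2 (-0.07) did not pass. In GF cells only Foxc1 passed (2.59). On a RAS array, 0 to 4 of these 6 markers lay under the lower quartile of the genes. Of the 10 microglia and macrophage markers, 6 to 9 lay under that quartile on RAS arrays, 8 on GF arrays and 7 to 9 on parental arrays. Only Cd68 of this list passed in RAS against parental cells (log2 2.25, limma adjusted p = 0.0011). The others differed there by log2 -0.10 to 0.27, so their sums in RAS cells do not stand for the list. The 6 astrocyte markers summed to 2968 to 5861 in RAS cells, 3748 to 7858 in GF cells and 751 to 2081 in parental cells, so neither treatment overlapped with the parental arrays. In each treatment 1 astrocyte marker passed upward and 0 downward. It was Gja1 in RAS cells (log2 4.89 above parental cells, limma adjusted p = 1.27e-05) and Slc1a3 in GF cells (log2 2.39, limma adjusted p = 0.0112). The median over the astrocyte list was log2 -0.065 in RAS cells and 0.441 in GF cells. In RAS cells Slc1a3 was log2 0.59 higher without passing. Gfap, Aqp4, Aldh1l1 and Slc1a2 differed there by log2 -0.37 to -0.01, so the sum does not stand for the list. The 7 mature neuron markers summed to 236 to 765 in RAS cells, 297 to 581 in GF cells and 562 to 2048 in parental cells. The 4 oligodendrocyte markers summed to 748 to 6251 in RAS cells, 3643 to 4674 in GF cells and 881 to 9805 in parental cells. The summed intensity of the granule neuron precursor markers was lower on all RAS and GF arrays than on any parental array. Singly, Atoh1 and Barhl1 were lower on every RAS and GF array, whereas Zic2 and Pax6 overlapped between parental cells and both treatments. By limma 5 of the 6 passed downward in RAS cells, Pax6 (log2 -1.85) among them, and Zic2 (-1.10) did not. In GF cells 2 passed downward, Atoh1 and Barhl1. The part of these markers in the differences of the members was not tested.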

How the data were processed

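The data are 24 arrays of total RNA, biotin labelled and hybridised by the Affymetrix protocol, per the labels. The deposited intensity of a probe set is 1 linear value per array. Their quartiles are close on all arrays, so they are scaled, by a method not given in the sources used here. An array has no read depth, and the number of arrays limits the precision. Single values run from 9.98 to 37842.

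Of 22690 probe sets, 64 controls were left out. Of all probe sets 20393 have 1 gene symbol, 691 several and 1606 none, and 12393 genes remained at 1 probe set each, the one with the highest mean. All 7 members matched the GRCm38.p6 gene table by identifier. The scale was log2 after adding 16 to each intensity.

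Linear models used R 4.3.3 and limma 3.58.1. Tests were two-sided, p-values were Benjamini-Hochberg adjusted over all 12393 genes, and 0.05 was the threshold. The tissue fit held 3 cerebella, 3 MB and 3 parental line means, and the culture fit held 18 arrays with treatment and line as terms, where arrays of 1 line count as replicates. The 9 line and treatment means gave the differences by line. Tests were tried on simulated data. Alternatives changed the offset, centring, filter, probe set, variance prior, samples and design. The second probe sets, the parental arrays numbered 1 alone, and the tests by line of GF and of RAS against GF were added after seeing the data.

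Groups come from the titles. For P6 replicate 2 the age label conflicts with the title, which was followed. Replicate numbers do not pair the samples: same-numbered RAS and parental arrays deviated together at r = -0.15 to -0.02, and MB and P6 arrays at -0.03 and 0.01. The GF group has 1 array per line, so this could not be checked there.

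Members and gene lists were chosen with earlier results of these data known. All 7 members are named. From each other list, up to 2 called genes with the smallest p per comparison could be named. Most alike genes are the 3 with the highest r over the 18 cultures, among genes that reach the median of all values on some array.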

Additional observations from a re-analysis of the deposited data

Results flagged for a closer look

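In the SMB21 parental group, which has 4 arrays, array 1 stood apart for a pair of members. Phlda1 was 8.90 there, with the nearest of the others at 10.14. Ier3 was 7.63 there, with the nearest of the others at 6.05. Both gaps passed Dixon's test at its 95% value. Array 1 also stood apart over all genes: the SD of its log2 differences from arrays 2 to 4 was 0.57 to 0.59, against 0.20 to 0.30 among those arrays. All 7 members were tested in this group, the only one large enough, and chance flags about 1 in 20 such tests.

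The Ier3 difference between RAS and GF cells differed by line (limma F test, adjusted p = 0.0203). RAS cells were lower than GF cells in SMB21, by log2 -7.43, and higher in SMB55 (1.54) and SMB56 (1.43). There is 1 GF array per line.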

How the results depend on the processing

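Over 77 single-gene results and 2170 recomputed values, 2082 kept direction and side of the threshold, 58 lost and 30 gained the call, and 0 called values changed sign. 65 values that passed in neither setting changed sign. RAS against parental cells gave 4 to 7 members over the alternatives run (Fosl1 was lost with the second probe sets, limma adjusted p = 0.0832, and Fos without line SMB21, 0.0525, while Etv5 or Ier3 joined in others), and parental cells against cerebella gave 1. RAS against GF, with 2 members, gave 1 with an offset of 64, with the mean of all probe sets, with the second probe sets and without line SMB21, 3 without the parental arrays numbered 1 (Phlda1 joined), and 0 with the 2 groups alone, with lines as replicates, with the replicate block, without line SMB55 and with only the parental arrays numbered 1. GF against parental cells, with 4, gave 0 with lines as replicates and without line SMB21, and 2 with the replicate block, without line SMB56 and with only the parental arrays numbered 1. Without the parental arrays numbered 1, 2 members differed between parental lines (Fos and Ier3), and 1 (Ier3) had a RAS response and 1 (Ier3) a GF response that differed by line. With only those arrays, 1 RAS response differed by line. Without low genes, 1 member differed between parental lines. MB against cerebella gave 1 (Egr1) with P6 cerebella only and 1 with the replicate block, where parental cells against MB gave 2 (Etv5 and Egr1) and the RAS against GF difference by line 0 (Ier3, limma adjusted p = 0.261). The replicate block moved no other count by over 1.5 times.

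With single arrays left out, the counts ranged from 5 to 7 for RAS against parental cells, 2 to 4 for GF against parental cells, 0 to 2 for RAS against GF, 1 to 2 for parental cells against MB, 0 to 1 for MB against cerebella, 0 to 1 for adult against P6 cerebellum, and 0 to 1 for the parental lines, for the RAS response by line and for RAS against GF by line. The cause of these changes was not tested, beyond the fewer arrays or genes that an alternative itself leaves. Fosl1 near the lowest intensities limits its differences.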
